A study of Mus musculus with 148 samples.

Results

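The CpGs described here lie around the start of the mouse gene *Mcm6*, on chromosome 1 between 128357001 and 128366000 of GRCm38. This stretch of 9000 bases holds the part of *Mcm6* intron 1 next to exon 1, exon 1 itself, the CpG island at the promoter and the sequence upstream of it, up to the last exon of the neighbouring gene *Dars*. Both genes lie on the minus strand, and *Mcm6* starts at 128359664. Every cytosine listed in a CG context was taken, each strand for itself, and a CpG was kept where more than 30 reads covered it in at least 74 samples, 1 in every 2. Of the 104 CpGs listed in the stretch, 63 met this rule (30 on the plus strand and 33 on the minus strand, at 37 positions). With the same coverage, 668 of the 1102 listed CpGs of the whole *Lct*–*Mcm6* locus would be kept. The kept CpGs with the fewest samples over 30 reads had 99 of them, and the best covered of the 41 others had 43. Of these 41 CpGs, 36 had a median of 0 reads. All 24 CpG positions of exon 1 in the reference were without a kept CpG.

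The samples were enterocytes of the mouse small intestine, whose DNA was bisulfite-converted and captured with padlock probes. A padlock probe carries an arm at either end that anneals beside the target, and once the gap has been filled in the probe is closed into a circle. The growth protocol names the mice as C57BL/6NCrl, the strain label reads C57BL/6MCrl, and no allele or transgene is named for any group. The intestine was cut into duodenum, jejunum and ileum and each of these into 3 pieces, which were numbered from segment 1, the most proximal, to segment 9. The study's text, however, assigns segments 1 and 2 to the duodenum, 3 to 5 to the jejunum and 6 to 9 to the ileum. There were 71 samples of adults at postnatal day 60 (P60), 8 in each segment but 7 in segment 6, and 10 samples of infants at postnatal day 6 (P6), 3, 3 and 4 in segments 1, 3 and 7. At postnatal day 90 (P90) there were 35 LAC+ samples, 7 in each of segments 1, 3, 4, 7 and 8, and 32 lac- samples, 6, 6, 7, 6 and 7 in the same segments. From day 30 these mice drank milk instead of water for 60 days, with lactose for LAC+ and free of lactose for lac-. Sucrose was added to the lactose-containing milk, so the diets differed in more than lactose. Cells were separated with a chelating method and are an enriched fraction. The study checked their purity by histology and cell sorting. RNA was not part of these files, so the cell type label was not checked against marker genes here. The labels do not tie samples to animals, and the study's text counts fewer mice per P60 segment than there are samples. Several samples may thus come from 1 mouse, and p-values measure the spread between samples.

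Lanes and files divided the samples as well. Lane numbers were taken from the file names, and whether equal numbers mean the same run was not checked. The P60 samples had lane numbers 5, 6 and 7, with 1 sample on lane 4, and the P6 samples all had lane number 8. Among P90 files, 29 LAC+ and 12 lac- ones were marked as merged and the other 6 and 20 were single files, and the labels do not say what was merged. Summed over the cytosines of the locus, the read counts ranged from 15226624 to 51340638 per P60 sample, 33271573 to 43201916 per P6 sample, 19797385 to 101149164 per lac- sample and 19769931 to 98001609 per LAC+ sample. The median kept CpG was read between 862 and 7393 times in a sample.

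*Mcm6* encodes a subunit of the helicase that unwinds DNA at replication forks, and its expression follows cell proliferation through E2F transcription factors. Promoters of such broadly used genes usually lie in CpG islands, which stay free of cytosine methylation while most CpGs elsewhere in the genome are methylated. Bisulfite sequencing does not separate methylation from hydroxymethylation, hence the term DNA modification, given as the percentage of reads at a cytosine that called it modified. *Dars* encodes the cytosolic aspartyl-tRNA synthetase.

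In the GRCm38 reference the stretch held 1 run that met the island criteria, chr1:128359104-128359980, with 877 bases and 59.6% G and C. It had 67 CpG positions at an observed to expected ratio of 0.871. The whole stretch had 144 CpG positions, 44.1% G and C and a ratio of 0.329. Counts in the reference sequence take each position once, whereas listed and kept CpGs are counted on each strand. Of the 144 positions, 52 were listed and 37 had a kept CpG. Of the 63 CpGs, 26 lay in the island at 13 positions between 128359744 and 128359856, which is 80 to 192 bases upstream of the start. RefSeq places the start 41 bases further upstream than GENCODE, the annotation used here, so these CpGs were upstream in both. Another 9 CpGs lay in intron 1 outside the island, 649 to 1181 bases into the gene, 12 lay between the island and *Dars*, 752 to 3927 bases upstream, and 16 lay in the last exon of *Dars*, 4382 to 4646 bases upstream of *Mcm6*.

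The captured targets that carry the results are given below from the GRCm38 reference, plus strand, 5′ to 3′, with the CpGs that were kept in capitals. They are the target in the island (chr1:128359740-128359863, between *Mcm6* and *Dars*), the one in *Mcm6* intron 1 (chr1:128358482-128358571), the one just upstream of the island (chr1:128360413-128360521, intergenic), one farther upstream (chr1:128361652-128361755, intergenic) and the coding end of *Dars* (chr1:128364237-128364325, the coding part of exon 16).
Island: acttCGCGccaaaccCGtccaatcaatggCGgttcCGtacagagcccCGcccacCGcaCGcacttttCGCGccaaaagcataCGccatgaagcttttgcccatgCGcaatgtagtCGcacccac
Intron 1: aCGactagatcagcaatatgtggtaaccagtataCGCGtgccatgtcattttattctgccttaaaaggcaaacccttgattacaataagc
Upstream: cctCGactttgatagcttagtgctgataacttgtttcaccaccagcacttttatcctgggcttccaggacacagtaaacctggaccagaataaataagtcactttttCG
Far upstream: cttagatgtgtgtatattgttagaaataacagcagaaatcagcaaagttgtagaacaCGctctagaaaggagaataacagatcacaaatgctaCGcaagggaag
Dars coding: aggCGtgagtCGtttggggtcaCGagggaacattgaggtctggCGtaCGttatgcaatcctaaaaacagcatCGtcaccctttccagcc

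The island target held 13 CpGs in 124 bases, the far upstream target 2 in 104 bases. The letters TTTNNCGC, a short form of the E2F site in which N is any base, occurred 3 times in the RefSeq promoter of *Mcm6* (250 bases before to 50 after the start), searched on both strands, and 5.16% of 32817 RefSeq mouse promoters held them at least once. The longer run TTTNNCGCG occurred in 2 copies on the minus strand, at chr1:128359744-128359752 and chr1:128359807-128359815, and in 1.11% of promoters. These 2 copies overlap all 3 of the short matches and hold 2 of the 13 captured CpG positions each. GGGCGG, the GC box, and CCAAT each occurred 2 times, and 35.6% and 37.4% of promoters held them. The letters were chosen after the sequence had been read. The *Mcm6* promoter held 21 CpGs against a median of 7 over the promoters, and 24.8% of promoters held as many.

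In P60 enterocytes the captured part of the island was almost free of DNA modification. It held 13 of the island's 67 CpG positions, none of them in exon 1. From 2045 bases upstream onwards, by contrast, the CpGs read in targets had means of 72.8% to 96.7%. The mean percentage of the 26 island CpGs ran from 0.363% ± 0.167 (SD, n = 71) at 128359787 on the plus strand to 1.13% ± 1.83 (SD, n = 70) at 128359788, its partner on the minus strand, with a median of 0.637%. The gap between these partners has to be read with their depth, a median of 1373 reads on the plus strand and 108 on the minus strand, where 1 read is 0.926%. Over all ages and diets, the highest group mean of any island CpG was 1.27%, in P6.

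Part of the island's percentage was shared by cytosines outside CpGs, the CpHs, which count reads left unconverted by bisulfite along with any true modification. On the plus strand of the island target, the mean over 13 CpGs was 0.591% ± 0.081 (SD, n = 71) in P60, against 0.427% ± 0.044 over 29 CpHs, and CpGs were above CpHs in 70 of 71 samples. On the minus strand, CpGs were above CpHs in 55 of 71 samples. CpGs inside the 2 E2F-type runs (8 CpGs at 4 positions) had 0.688% ± 0.229 (SD, n = 71) and those outside (17 CpGs at 9 positions) 0.641% ± 0.181. Both sets were read in the same samples, and their difference within samples was not tested.

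The 9 intron 1 CpGs spanned a wider range. In P60 the CpG nearest to the island, at 128359015 on the plus strand, had 0.594% ± 0.132 (SD, n = 71), and the next, at 128358905, had 2.40% ± 0.70. The CpG at 128358607 had 9.97% ± 2.29 on the minus strand, and 128358516 on the plus strand had 19.02% ± 2.75, the highest of the intron. Farther in, at 128358483, the percentage was 0.969% ± 0.309, although this CpG is read in the same target as the one at 128358516. The change with distance from the island was therefore not even: within this 1 target the P60 samples ranged from 0.405% to 1.71% at 128358483 and from 13.003% to 24.98% at 128358516, without overlap. The positions 128358905, 128358607 and 128358483 were chosen after their values had been seen.

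On the upstream side the percentages spanned a wider range than in intron 1. At 128360416, 752 bases from the start, both strands had means of 2.08% and 2.87%, and at the other end of the same target, 128360520 had 18.4% ± 4.43 (SD, n = 71) on the plus strand. At 128361709 and 128361745 the means were 96.7%, with SDs of 0.398 and 0.420. Between 128363385 and 128363591 the CpGs read in targets had means from 72.8% to 93.9%, and the 16 *Dars* CpGs ran from 85.9% ± 3.33 at 128364047 on the minus strand to 96.2% ± 2.63 at 128364240 on the plus strand.

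**Figure D1:**
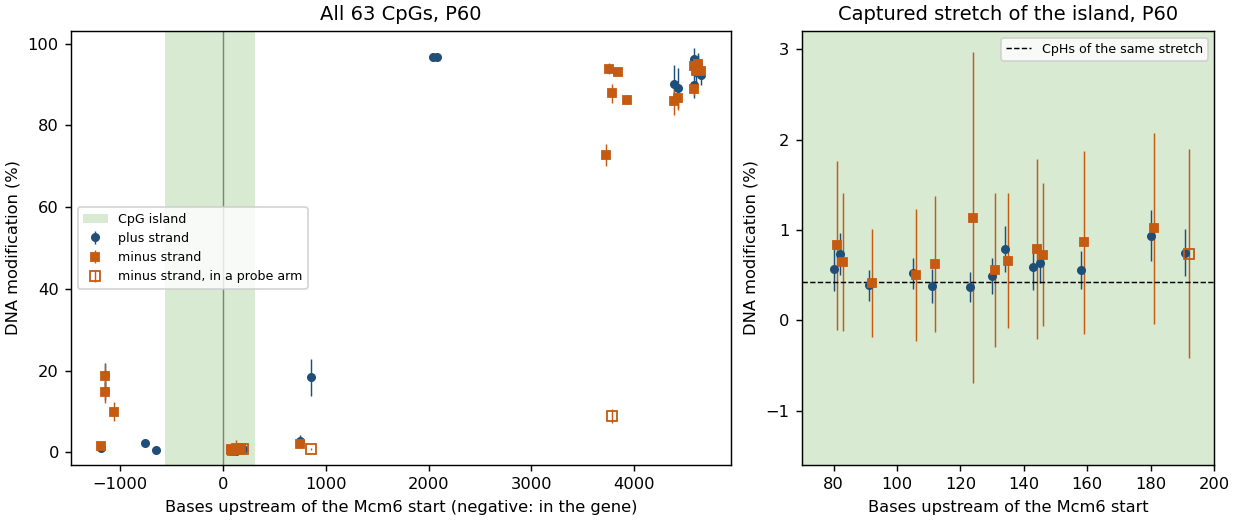
DNA modification (%, mean with SD as bars over up to 71 P60 samples) of the 63 CpGs against their distance upstream of the *Mcm6* start in bases, for the whole stretch on the left and the captured part of the island on the right, where the dashed line is the mean of the CpHs. The island CpGs lie between 0.363% and 1.13%, the intron 1 CpGs reach 19.02%, and from 2045 bases upstream onwards all CpGs but those at 128363385 (72.8%) and, in a probe arm, 128363451 (8.88%) are at 85.9% or more.

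The low value at 128363451 belongs to 1 of 3 CpGs that were read only where a probe arm had annealed. In an arm the sequenced base is that of the probe, not of the sample. The ligation arms were written with a T at these cytosines, as for an unmodified CpG. The CpG at 128360521 also lay at the end of the extension arm of a second minus-strand probe, which is not printed. The ligation arms are given as designed, with the base at the CpG in capitals.
128359856 minus: taagttaaaataattagagggtgggtgT
128360521 minus: ttaaatttttaatatttagtaagtttT
128363451 minus: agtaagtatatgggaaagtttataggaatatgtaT
At 128360521 the minus strand had 0.824% ± 0.276 (SD, n = 71) in P60 and its partner on the plus strand, read in a target, 18.4%. At 128363451 the percentage was 8.88% ± 1.72 (SD, n = 71), and the 5 other CpGs of that neighbourhood were at 72.8% or more. At 128359856 in the island, the arm gave 0.739% and the plus strand, read in a target, 0.750%, so that both were near 0. These 3 CpGs met the coverage rule and stay in the counts, but a base copied from the probe does not report the sample. Where the modified reads at 128363451 came from was not tested.

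Both strands were read in targets at 24 positions. Of these, 12 were in the island, where percentages near 0 leave no room for a difference. In *Dars* 4 of 8 positions differed by 1 percentage point or more in P60, and in intron 1 and upstream 0 of 4 did. The largest difference was 4.24 points at 128364046 in the untranslated part of *Dars* exon 16, where the plus strand had a median of 41 reads and the minus strand 283. With the arm CpGs included, the largest was the 17.5 points at 128360520.

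The order of the 4 groups of CpGs was the same at each age and diet. In P6, lac- and LAC+ samples the island CpGs had group means of 0.455% to 1.27%, 0.499% to 1.21% and 0.449% to 1.09%, and the *Dars* CpGs 86.2% to 95.7%, 84.5% to 94.2% and 83.4% to 93.6%. The intron 1 CpGs reached higher than in P60, up to 28.2% in P6, 23.3% in lac- and 30.7% in LAC+. As a mean over the 9 intron 1 CpGs, single samples ran from 7.13% to 12.8% in P60 (median 9.08%, n = 71), 9.17% to 22.5% in P6 (median 12.6%, n = 10), 7.87% to 20.02% in lac- (median 10.0%, n = 32) and 7.07% to 28.2% in LAC+ (median 16.6%, n = 35). The groups overlapped at the low end, and the high values lay in P6 and P90 samples. The P60 mean was 9.24% ± 1.39 (SD), the P6 mean 14.1% ± 4.33, the lac- mean 11.9% ± 3.81 and the LAC+ mean 16.8% ± 4.63.

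**Figure D2:**
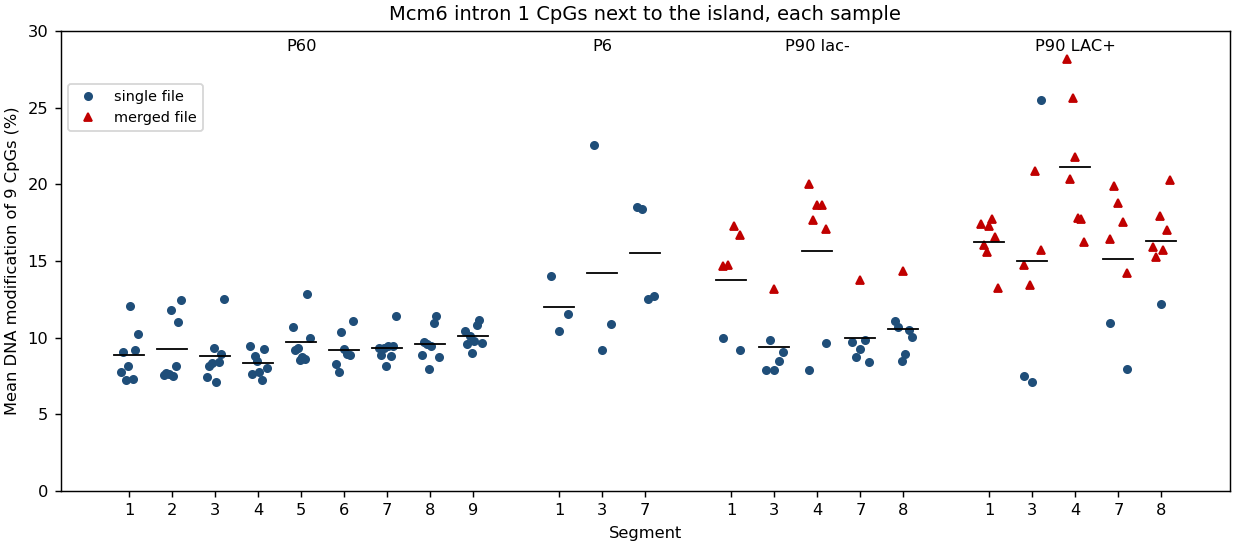
Mean DNA modification (%) of the 9 *Mcm6* intron 1 CpGs in each sample, by segment within P60, P6, P90 lac- and P90 LAC+, with merged files as triangles, single files as circles and group means as lines. P60 samples stay between 7.13% and 12.8%, merged files lie at 13.2% or more, and the highest single file, 25.5%, is in LAC+ segment 3.

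Merged and single P90 files differed at these CpGs, and this bears on each comparison with P90 samples. The comparison was added after the values had been seen. As in the other comparisons, modified and unmodified reads of each cytosine were fitted with a quasi-binomial model, the groups were compared with an F test, and p-values were Bonferroni-adjusted over every cytosine tested in the locus. Here segment was a covariate and each diet was fitted for itself. In lac-, 12 merged against 20 single files, 15 of the 63 CpGs passed the threshold of 0.01, against 4.17% of all CpGs of the locus. In intron 1, 8 of the 9 CpGs were higher in merged files. Upstream of the island both plus-strand CpGs of the target at 128360413 were higher, in *Dars* 5 of 16 CpGs were lower, and in the island 0 of 26 passed.

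The CpG at 128358607 on the minus strand had 1 of the largest differences. It had 24.2% ± 3.94 (SD) in the 12 merged and 10.0% ± 1.97 in the 20 single lac- files (quasi-binomial F test, Bonferroni-adjusted p = 3.26e-08). At 128360520 on the plus strand the values were 32.5% ± 4.27 and 17.99% ± 4.56 (adjusted p = 3.72e-05 by the same test). At 128364248 in *Dars*, on the minus strand, they were 82.9% ± 3.34 and 89.7% ± 1.70 (adjusted p = 0.00825). The intron 1 CpGs and the target just upstream of the island were thus higher in merged files and 5 *Dars* CpGs lower, while the island stayed within 0.675 points. The single lac- files had an intron 1 mean of 9.28% ± 0.954 (SD, n = 20), beside 9.24% ± 1.39 in P60 (n = 71), and the merged ones 16.4% ± 2.21 (SD, n = 12).

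In LAC+, 15 merged against 6 single files of segments 3, 7 and 8, 0 of the 63 CpGs passed, against 0% of all CpGs. The 9 intron 1 CpGs were all higher in merged files, with a median difference of 6.12 points. Without LAC+ segment 3 replicate 7, the single file with an intron 1 mean of 25.5%, the median was 10.7 points and 0 of the 63 passed, against 0.15% of all CpGs. All these LAC+ files but replicate 7 of segment 3 had lane number 1, so the value without it compares file kinds within a lane number. In lac- no segment had both kinds on 1 lane, so file kind and lane cannot be told apart there, and in neither diet can file kind and animal.

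**Figure D3:**
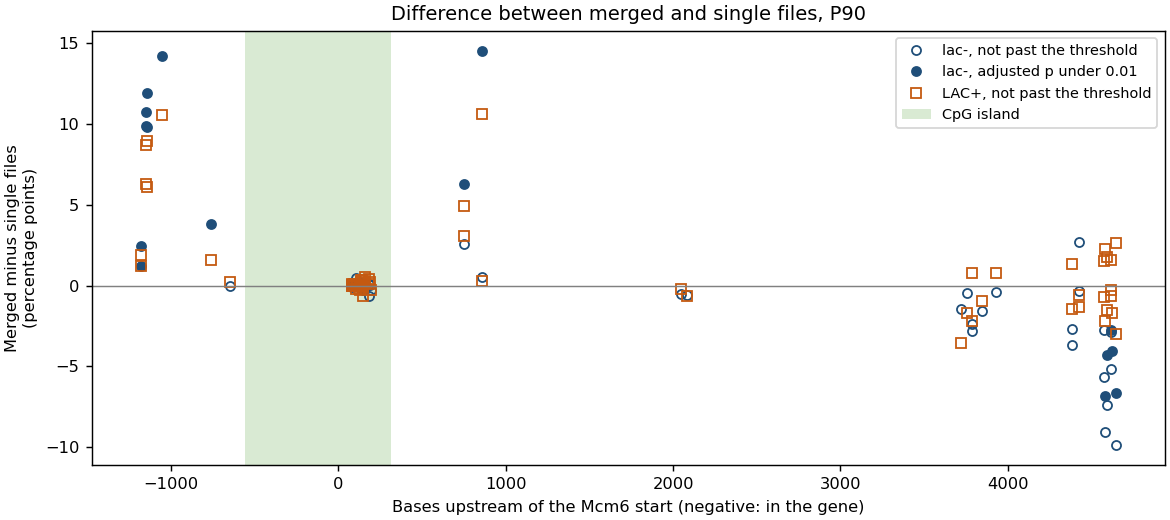
Difference in DNA modification (percentage points, merged minus single files) of the 63 CpGs against distance upstream of the *Mcm6* start in bases, for lac- (12 against 20 files, filled where the Bonferroni-adjusted p is under 0.01) and LAC+ (15 against 6 files, segments 3, 7 and 8). The lac- differences reach 14.2 points in intron 1 and 14.5 points at 128360520, stay within 0.675 points in the island and go down to -9.87 points in *Dars*.

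The 9 segments of P60 mice were compared to learn whether DNA modification follows the position along the gut. The island, intron 1 and 11 of the 12 upstream CpGs did not pass the test, and 2 of the 63 CpGs did. Over the locus 17.2% of the 653 CpGs tested passed, with Bonferroni correction over 10918 cytosines. With Benjamini-Hochberg correction at 0.05, 7 of the 63 passed, against 30.3% of all CpGs. An uncorrected p under 0.05 was found at 14 of the 63 CpGs (22.2%) and at 48.5% of all CpGs.

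The CpG at 128360520 on the plus strand, 856 bases upstream of *Mcm6*, changed most. In segments 1 to 4 its samples ranged from 12.1% to 21.7%, 12.4% to 21.9%, 9.42% to 20.6% and 10.6% to 23.1%. In segments 5 to 9 they ranged from 14.3% to 22.6%, 17.3% to 23.6%, 18.2% to 21.8%, 16.6% to 24.3% and 19.9% to 28.2%. Proximal and distal samples overlapped, and the distal ones lay higher. Segment means were 14.6% ± 3.03 in segment 3, 14.3% ± 3.85 in segment 4, 21.4% ± 2.23 in segment 6 and 24.3% ± 2.71 (SD) in segment 9, and the adjusted p of the quasi-binomial F test was 0.000448. Segment 9 exceeded segment 3 by 10.8, 9.79 and 7.19 points within lanes 5, 6 and 7. The other CpG of the same target, at 128360416, did not pass on either strand.

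The other CpG that passed, 128364241 on the minus strand in the coding part of *Dars* exon 16, changed by little. Its samples ranged from 92.5% to 94.7% in segment 2, 93.2% to 95.0% in segment 3 and 94.8% to 96.0% in segment 8. Segment means went from 93.7% ± 0.754 (SD) in segment 2 to 95.3% ± 0.394 in segment 8, with an adjusted p of 0.00264 by the quasi-binomial F test and 0.822 by limma. Segment 9 exceeded segment 3 by 1.89, 1.38 and 0.30 points in lanes 5, 6 and 7. It was read a median of 6907 times per P60 sample.

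Variation between segments differed between the groups of CpGs. The span from the lowest to the highest segment mean had a median of 0.956 points over the 63 CpGs and of 2.65 points over the 668 CpGs of the locus. In the island the median span was 0.316 points, in intron 1 2.52 points, upstream 1.38 points and in *Dars* 2.94 points. In *Dars* 15 of 16 CpGs, read at 8 positions, were higher in segment 9 than in segment 3, with a median of 1.28 points. In the island 13 of 26 were. Over the locus 448 of 668 were, with a median of 0.449 points. The mean over the intron 1 CpGs had its lowest segment value, 8.32% ± 0.805 (SD), in segment 4 and its highest, 10.1% ± 0.706, in segment 9, and in single samples these segments ran from 7.21% to 9.43% and from 9.00% to 11.1%. The mean over the 13 plus-strand island CpGs lay between 0.537% ± 0.067 in segment 1 and 0.635% ± 0.054 in segment 2.

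**Figure D4:**
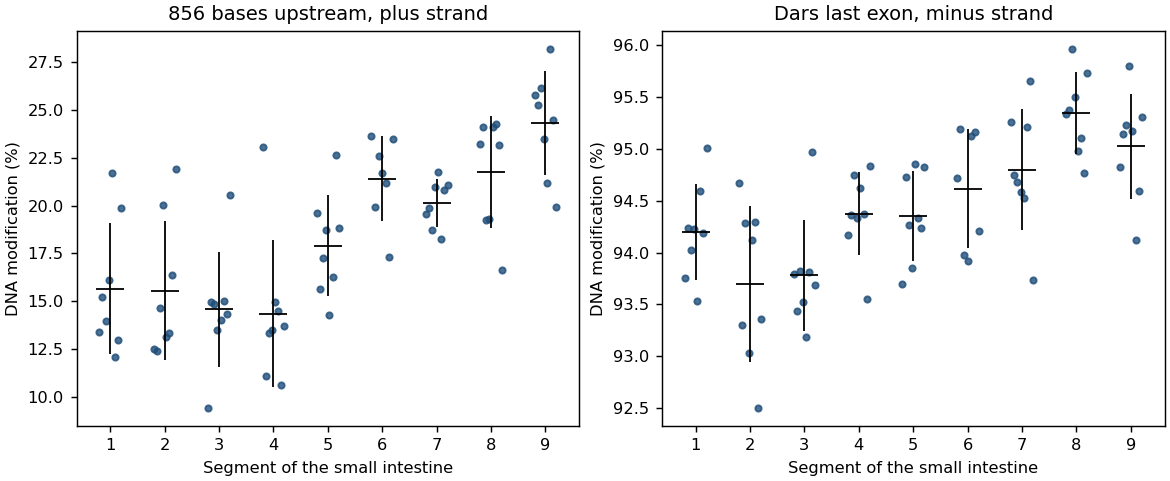
DNA modification (%) of the 2 CpGs that passed the test of P60 segments, 128360520 on the left and 128364241 on the right, in each sample (points) with the segment mean and SD (bars), on axes that do not start at 0. The CpG upstream of the island rises from a mean of 14.3% in segment 4 to 24.3% in segment 9, the *Dars* CpG from 93.7% in segment 2 to 95.3% in segment 8.

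In P6 the 3 segments were compared over 10 samples, and 0 of 61 CpGs passed, against 0% of all CpGs, with an uncorrected p under 0.05 at 5 of the 61 (8.20%, against 9.70% of all CpGs) by the quasi-binomial F test and 0 passing by limma. The lowest p was again at 128364241 on the minus strand, with 93.7% ± 0.461 (SD) in segment 1, 93.5% ± 0.507 in segment 3 and 95.7% ± 0.508 in segment 7 (adjusted p = 1 by the quasi-binomial F test). The samples of segment 7 lay above those of the other segments, from 95.1% to 96.3% against 92.9% to 94.0%.

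Within the P90 diets the 5 segments gave 0 of 61 CpGs in lac-, against 4.05% of all CpGs, and 0 of 63 in LAC+, against 4.33%, by the quasi-binomial F test, and 0 in both by limma. With Benjamini-Hochberg correction 10 and 11 CpGs passed, against 29.4% and 25.1% of all CpGs. An uncorrected p under 0.05 was found at 29 CpGs in lac- (47.5%, against 57.8% of all CpGs) and 31 in LAC+ (49.2%, against 49.2%). In lac-, 128364241 on the minus strand had the lowest p, with 92.5% ± 0.607 (SD) in segment 1 and 94.6% ± 0.617 in segment 8 (adjusted p = 0.0122, quasi-binomial F test). Only 1 of the 7 segment 8 files and 4 of the 6 segment 1 files were merged, and with file kind as a covariate the adjusted p was 0.00983 and 4 *Dars* CpGs passed, beside 28 of 642 CpGs of the locus. The change was not a steady one, since segment 4, with 5 of its 7 files merged, had 91.2% ± 1.80. Merged lac- files were lower at this CpG, 91.6% ± 1.49 against 94.4% ± 0.958 in single files. The part that file kind has in the segment 4 value was not tested. In LAC+ the lowest p was at 128364309 on the plus strand, also in *Dars*, with 84.9% ± 3.21 in segment 1, 80.6% ± 3.76 in segment 4 and 92.7% ± 3.07 in segment 8 (adjusted p = 0.0238, quasi-binomial F test). Without LAC+ segment 3 replicate 7, which had 69.4% there, 128364309 had an adjusted p of 9.0e-05 by the quasi-binomial F test. This setting was added after the data had been seen. The LAC+ samples of segments 1 and 4 were all on lane 3, and those of segments 7 and 8 all on lane 1. Segment and lane thus cannot be told apart in this contrast. In lac-, segments 1 and 8 shared no lane either.

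Infants and adults were compared in segments 1, 3 and 7. None of 61 CpGs passed in any of them by the quasi-binomial F test, against 0.624%, 0.779% and 0.93% of all CpGs, and limma passed 0 as well. With Benjamini-Hochberg correction 7, 4 and 16 CpGs passed, against 15.1%, 13.1% and 23.6% of all CpGs. An uncorrected p under 0.05 was found at 21, 16 and 28 of the 61 CpGs, which is 34.4%, 26.2% and 45.9%, against 35.7%, 31.8% and 43.1% of all CpGs. In intron 1, the 9 CpGs were all higher in P6 than in P60 in each of the 3 segments, with median differences (P60 minus P6) of -3.80, -6.95 and -10.1 points, whereas the medians over all CpGs of the locus were 0.123, 0.467 and 0.641 points.

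The samples behind these medians overlapped in segments 1 and 3. The intron 1 means of P6 samples were 14.01%, 10.4% and 11.5% in segment 1, 22.5%, 9.17% and 10.9% in segment 3 and 18.5%, 18.4%, 12.5% and 12.7% in segment 7. P60 samples ranged from 7.24% to 12.1%, 7.13% to 12.5% and 8.16% to 11.4% in the same segments. In segment 7 the P6 samples all lay above the P60 samples, and in segment 3 replicate 1 stood apart. Since the P6 samples were all on lane 8 and no P60 sample was, age and lane cannot be told apart.

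The lowest p in each segment fell outside intron 1. In segment 1 it was at 128364260 on the minus strand in *Dars*, 90.6% ± 0.517 (SD) in P6 and 93.2% ± 0.582 in P60 (adjusted p = 0.728). In segment 3 it was at 128363448 on the minus strand, between the genes, 84.1% ± 2.04 and 89.4% ± 1.14 (adjusted p = 1). In segment 7 it was at 128364309 on the plus strand, where P6 samples ran from 88.3% to 90.2% and P60 samples from 93.2% to 95.7%, with means of 89.2% ± 0.813 and 94.2% ± 0.900 (adjusted p = 0.0393, quasi-binomial F test). These 3 CpGs were more modified in adults, opposite in sign to the intron 1 CpGs.

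The island was slightly lower in P60 than in P6, at 22, 20 and 21 of its 26 CpGs in segments 1, 3 and 7. The mean of the 13 plus-strand CpGs was 0.822% ± 0.046 (SD, n = 10) in P6 and 0.591% ± 0.081 (n = 71) in P60, and the CpHs of the same strand and target were at 0.582% ± 0.050 and 0.427% ± 0.044. CpGs and CpHs thus moved the same way, and the part that incomplete conversion has in the island's difference was not tested. The difference of CpGs over CpHs was 0.240 ± 0.088 points in P6 and 0.164 ± 0.070 in P60.

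Diet was compared within segments, and heavily modified CpGs were left out of the test, those with a mean over 90%. None of the 53, 49, 55, 47 and 46 CpGs tested in segments 1, 3, 4, 7 and 8 passed by the quasi-binomial F test, against 0% of all CpGs in each segment, and 0 passed by limma. With Benjamini-Hochberg correction 6 passed in segment 8, against 4.52% of all CpGs, and 0 in the other segments. An uncorrected p under 0.05 was found at 2, 1, 7, 12 and 13 of them, which is 3.77%, 2.04%, 12.7%, 25.5% and 28.3%, against 6.76%, 5.32%, 6.19%, 14.6% and 20.5% of all CpGs tested. The intron 1 CpGs were higher in LAC+ than in lac- for 9, 9, 9, 8 and 8 of 9, with median differences of 2.80, 7.45, 7.39, 7.69 and 8.26 points.

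The file kinds were unequal between the diets, so the differences were also taken with file kind or lane number held fixed. All 7 LAC+ samples of segments 1 and 4 were merged, so these were compared with the 4 and 5 merged lac- samples. Both had lane number 3. The other lac- samples of these segments were single files with lane number 5, so file kind and lane number were not separated. Among the merged files the median intron 1 difference was 0.0884 points in segment 1, with 7 of 9 CpGs higher in LAC+. In segment 4 it was 3.58 points, with 9 of 9 higher. The intron 1 means were 16.3% and 15.8% in segment 1, and 21.1% and 18.4% in segment 4, for LAC+ and lac-. Lane 1 of segments 3, 7 and 8 held only 1 lac- sample each, a merged one, and the difference in intron 1 means was 0.0132, 1.37 and 1.95 points. Of the 6, 7 and 7 LAC+ samples on that lane, 2, 2 and 1 were single files. The lane number was thus held fixed in these 3 differences, but file kind was not. Single files of both diets were found in segments 3 and 7, with medians of 5.62 and 0.118 points, the former with LAC+ replicate 7 among its 3 samples.

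The CpGs with the lowest p for diet lay in different parts. In segment 8 it was 128358517 on the minus strand in intron 1, with lac- samples from 18.7% to 26.6% and LAC+ samples from 26.6% to 36.3%, means of 22.03% ± 2.81 (SD) and 30.6% ± 3.198, and an adjusted p of 0.171 by the quasi-binomial F test. Of these samples, 1 of 7 lac- and 6 of 7 LAC+ files were merged. In segment 7 it was 128364248 on the minus strand in *Dars*, 90.2% ± 1.42 in lac- and 86.2% ± 2.80 in LAC+ (adjusted p = 1). In segments 1, 3 and 4 they were island CpGs, of which 128359746 on the plus strand in segment 4 had the lowest, 0.659% ± 0.141 in lac- and 0.999% ± 0.138 in LAC+ (adjusted p = 0.438). The other 2, 128359844 on the plus strand (1.13% and 0.964% in segment 1) and 128359799 on the minus strand (1.02% and 0.221% in segment 3), went the opposite way. No direction held for the island over the 5 segments, with 12, 10, 14, 15 and 6 of 26 CpGs higher in LAC+.

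P60 and P90 lac- samples differ in age and in milk, and were compared in the same 5 segments. Of the 61 CpGs tested in segment 3, 1 passed, against 0.154% of all CpGs. It was 128363448 on the minus strand, 3784 bases upstream, with P60 samples from 87.5% to 90.9% and lac- samples from 80.5% to 86.01%, without overlap, and means of 89.4% ± 1.14 (SD) and 83.1% ± 2.05 (adjusted p = 0.00782, quasi-binomial F test). Without the 1 merged lac- file the difference was -5.75 points and the adjusted p 0.107, and limma gave an adjusted p of 1. P6 samples of this segment, from 82.9% to 86.5%, were also below the P60 samples, so the CpG was highest in P60.

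In segments 1, 4, 7 and 8, 0 CpGs passed by the quasi-binomial F test, against 0%, 0.15%, 0% and 0% of all CpGs, and 0 passed by limma. An uncorrected p under 0.05 was found at 32, 39, 10 and 17 CpGs, which is 50.8%, 61.9%, 16.4% and 27.9%, against 32.2%, 54.3%, 14.5% and 19.1% of all CpGs. With Benjamini-Hochberg correction 3, 3, 25, 2 and 1 CpGs passed in segments 1, 3, 4, 7 and 8, against 4.96%, 3.39%, 29.2%, 1.09% and 2.12% of all CpGs. The lowest p was at 128364241 on the minus strand in segment 1 (94.2% in P60 and 92.5% in lac-), 128363509 on the minus strand in segment 4 (93.2% and 91.6%, adjusted p = 0.0462 by the quasi-binomial F test), 128359794 on the plus strand in the island in segment 7 (0.362% and 0.797%) and 128364281 on the minus strand in segment 8 (95.4% and 94.5%). In intron 1, lac- exceeded P60 by a median of 6.63 points in segment 1 and 11.1 points in segment 4, where 4 of 6 and 5 of 7 lac- files were merged. Without merged files the medians were 0.363 and 0.168 points. The island was slightly higher in lac- at 21, 18, 21, 18 and 20 of its 26 CpGs, and the CpHs of its plus strand were higher too, 0.518% ± 0.048 (SD, n = 32) against 0.427% ± 0.044 (n = 71).

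Whether the differences depended on the segment was tested with interaction terms. For age, diet, and P60 against lac-, 0 of 61 CpGs passed in each by the quasi-binomial F test, against 0% of all CpGs. The lowest p was at 128364285 on the minus strand in *Dars*, for P60 against lac- (adjusted p = 0.0478 by the same test).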

How the data were processed

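Reads had been trimmed with Trimmomatic 0.32 and mapped with Bismark to GRCm38 (mm10), per the submitters' processing notes. The authors deposited, for each cytosine of each sample, counts of modified and unmodified reads, without normalization. These were used as deposited, and samples with 30 reads or fewer at a cytosine were left out there. Counting error and the spread between samples limit the precision. Parts were set by the GENCODE M21 annotation, probes by the study's design file and promoters by RefSeq (GRCm38.p6).

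The members, the lists and the CpGs to be named were chosen with earlier results of these data known. A CpG was named where it passed a comparison or had its lowest p, or where it had the highest or lowest P60 mean of its part. Cytosines of the whole locus over this read minimum in 3 or more samples per group were fitted with a quasi-binomial model with 1 dispersion per cytosine and an F test. The Bonferroni family was all CpGs and CpHs tested, for diet only CpGs up to 90%, and the threshold 0.01. Region means are descriptions, taken over the CpGs covered in every sample, which for the island are its 13 plus-strand CpGs. In simulated data, 86 of 100 CpGs shifted by 10 points and 99 of 100 shifted by 20 were recovered among P60 segments, 36 and 75 for age in segment 7, and 69 and 92 for diet in segment 8, and 0 unchanged CpGs passed. Of the unchanged CpHs, 32 passed among P60 segments and 1 for age, so the threshold did not hold for CpHs, and the diet simulation had CpGs only. An uncorrected p under 0.05 was found at 6.84%, 7.64% and 6.52% of the unchanged CpGs in the same order.

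The other settings tried were limma (log2 odds, pseudocount 0.5), Benjamini-Hochberg adjustment (0.05), a read minimum of 10 or 100, blocks for replicate numbers and, in P60, for library numbers, covariates for lane and file kind, pooled reads, and P6 samples left out in turn. Settings by file kind, without probe arms or without LAC+ segment 3 replicate 7 were added after the data had been seen. P60 segment 1 replicates 1 and 4 differed by more than counting noise (chi-square per degree of freedom 2.88, against a lowest of 2.51 and a median of 6.72 over 449 pairs) and were kept as separate samples. Python 3.11.15, NumPy 2.4.6, SciPy 1.17.1, pandas 2.3.3, Matplotlib 3.10.9, R 4.3.3 and limma 3.58.1 were used.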

Additional observations from a re-analysis of the deposited data

Results flagged for a closer look

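In 13 of 140 groups of 4 to 10 samples examined over 7 values, 1 sample stood apart from the others by Dixon's criterion, where chance gives about 1 in 20. For the mean of the intron 1 CpGs these were P60 segment 3 replicate 8 (12.5%, the others up to 9.32%) and segment 7 replicate 8 (11.4%, the others up to 9.48%), both on lane 7, and lac- segment 3 replicate 5 (13.2%, the others up to 9.86%) and segment 7 replicate 5 (13.7%, the others up to 9.87%), each the only merged file of its group. At 128360520 on the plus strand, lac- segment 3 replicate 5 was also the highest with 28.6% (the others up to 16.02%), and P60 segment 4 replicate 1 had 23.1% (the others up to 14.96%). At 128363448 on the minus strand, the lowest samples were P60 segment 8 replicate 4 with 82.5%, LAC+ segment 4 replicate 7 with 79.4% and lac- segment 7 replicate 4 with 76.3%. At 128364241 on the minus strand, P60 segment 3 replicate 7 had 95.0%. The mean of the island was highest in P60 segment 6 replicate 6 (0.735%), that of the upstream CpGs in P60 segment 9 replicate 2 (56.6%), and that of the *Dars* CpGs was lowest in LAC+ segment 1 replicate 5 (86.4%).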

How the results depend on the processing

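Minimums of 10 or 100 reads left each count of CpGs that passed at its value, as did, among P60 segments, lane as a covariate and segment 1 replicates 1 and 4 summed or left out. With Benjamini-Hochberg correction at 0.05, 7 CpGs passed among P60 segments, 10 among lac- and 11 among LAC+ segments, 7, 4 and 16 for age in segments 1, 3 and 7, 6 for diet in segment 8, and 3, 3, 25, 2 and 1 for P60 against lac- in segments 1, 3, 4, 7 and 8. Limma passed 1 CpG among P60 segments and 0 for P60 against lac- in segment 3, where 0 also passed without merged files. Among LAC+ segments 1 passed within merged files, beside 23 of 669 CpGs of the locus. Without LAC+ segment 3 replicate 7, a setting added after the data had been seen, 128364309 passed among LAC+ segments. Among lac- segments 4 passed with file kind as a covariate, beside 28 of 642 CpGs of the locus. Merged lac- files were numerous enough in segments 1 and 4 only, and 128364241 was -1.92 points from segment 1 to 4 within them, which is another contrast than segment 1 to 8 and had the same sign over all files (92.5% and 91.2%).

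The labels do not say that replicate numbers pair samples. Same-numbered samples had a mean correlation of 0.013 among P60, 0.025 among lac- and 0.038 among LAC+, and of 0.278 among P6 (6 of 9 pairs over 0.1, different numbers -0.105). With the replicate number as a block, 2 CpGs passed among P60 segments (108 of 653 in the locus), 2 among LAC+ segments (34 of 669) and 0 for P60 against lac- in segment 3, and no other call changed. Library numbers were also used to infer the mouse of a P60 sample. With these as a block, the same 2 CpGs passed among P60 segments (123 of 653). Leaving out each P6 sample gave 0 CpGs in each comparison, and P6 means of 13.1% to 14.6% in intron 1, 0.809% to 0.828% in the island, 55.2% to 55.5% upstream and 91.1% to 91.4% in *Dars*.

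With the CpH percentage subtracted, the island mean was 0.163% for P60, 0.245% for P6, 0.222% for lac- and 0.228% for LAC+. Pooled reads gave 93.1% for *Dars* in P60 and, upstream, 73.1%, 76.1%, 75.2% and 75.6% in the same order, against means of 55.01%, 55.4%, 55.2% and 56.4%. Without the probe arms the upstream means were 65.05%, 65.2%, 64.9% and 66.4%. The cause of these changes is the settings' own construction for arms and CpHs and was not tested otherwise. Depth limits the minus strand of the island, where 1 read in P60 is 0.926%.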

Other observations

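Outside CpGs, the percentage was not the same in all groups. Over the CpHs next to the *Dars* CpGs it was 0.473% ± 0.054 (SD, n = 71) in P60, 0.648% ± 0.111 (n = 10) in P6, 0.810% ± 0.212 (n = 32) in lac- and 0.758% ± 0.147 (n = 35) in LAC+. Over the CpHs of intron 1 it was 0.345% ± 0.026, 0.433% ± 0.014, 0.414% ± 0.025 and 0.421% ± 0.025 in the same order. Over all CpHs of the locus it was 0.387% ± 0.023, 0.484% ± 0.019, 0.5001% ± 0.036 and 0.496% ± 0.030.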
